A study of Mus musculus with 56 samples.

Results

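The 33 genes described here make cholesterol and fatty acids in mouse cells, or control and carry what those pathways make. They were taken by symbol from each of the 3 expression tables of the series, and all 33 were found among 30647 distinct symbols. Of them 18 are sterol pathway enzymes (8 from acetyl-CoA to squalene and 10 from squalene to cholesterol), 5 control the SREBP transcription factors, 1 (Stard4) carries sterol inside the cell, and 9 make, elongate or desaturate fatty acids.

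The 56 samples were microglia, the resident macrophages of the brain, taken from cortex or grown in culture. Single-cell libraries of 3′ transcript ends (droplets, counts of unique molecular identifiers, UMIs) came from B6 cortex, with 2 libraries each of wild type at postnatal day 28 (P28), wild type at P9, ST2 knockout (KO) at P9 and ST2 heterozygote (Het) at P9. ST2 is the receptor for the cytokine IL-33. Primary wild-type B6 microglia were prepared at postnatal day 5 to 8 and grown for 7 to 9 days in 2.5% heat-inactivated serum with 10 ng/ml M-CSF, and 7 cultures received 200 ng/ml IL-33 for 3 h and 7 received medium. The protocol also mentions a pretreatment with GSK-J4, an inhibitor of histone demethylases, without saying which cultures had it. Tau-GFP microglia, 8 GFP-positive and 8 GFP-negative sorted libraries, came from cortex of B6/129 mice that carry EGFP in the Mapt gene, which neurons express, so both groups carry that allele. Their age is day 10 in the labels and day 9 in the study design. Lastly, P9 cortical microglia were sorted for high (10 libraries) or low (8 libraries) staining with TMRM, a dye that mitochondria take up by their membrane potential. Nothing in the labels says that libraries of a group came from separate animals or cultures, so p-values measure only the spread between these libraries.

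Cholesterol synthesis starts from acetyl-CoA and runs through mevalonate and squalene. Its enzymes are switched together by SREBP2, and many fatty acid enzymes by SREBP1, membrane-bound factors that SCAP escorts to the Golgi for cleavage when sterol is low, and that INSIG proteins hold back when sterol is high. Brain cholesterol is made locally, and microglia also take up and degrade sterol-rich debris, including myelin and dying cells. Both INSIG1 and SQLE are also controlled by degradation of the protein, which transcript counts do not show.

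The promoters of 4 genes on which the results below turn are given to show the letters that SREBP and its partner NF-Y are known to bind. They are the 250 bases before the annotated start, from RefSeq on GRCm38.p6, 5′ to 3′ on the gene's strand. Capitals mark TCACNCCAC, a form of the sterol regulatory element, and CCAAT, the box bound by NF-Y, on either strand (ATTGG is CCAAT on the other strand). Hmgcs1 (HMG-CoA synthase) lies at chr13:119690101-119690350 on the plus strand, Idi1 (isopentenyl diphosphate isomerase) at chr13:8885356-8885605 on the plus strand, Cyp51 (lanosterol demethylase) at chr5:4104698-4104947 on the minus strand, and Insig1 at chr5:28071162-28071411 on the plus strand.
Hmgcs1: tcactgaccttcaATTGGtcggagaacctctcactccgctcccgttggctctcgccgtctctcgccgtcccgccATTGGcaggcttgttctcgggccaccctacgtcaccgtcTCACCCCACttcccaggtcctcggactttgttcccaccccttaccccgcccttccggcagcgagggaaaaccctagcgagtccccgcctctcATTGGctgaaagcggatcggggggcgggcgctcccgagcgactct
Idi1: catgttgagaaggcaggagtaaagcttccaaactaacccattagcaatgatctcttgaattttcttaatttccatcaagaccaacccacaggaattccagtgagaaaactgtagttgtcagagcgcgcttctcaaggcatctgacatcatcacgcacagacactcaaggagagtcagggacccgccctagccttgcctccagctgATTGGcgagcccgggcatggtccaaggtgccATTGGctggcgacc
Cyp51: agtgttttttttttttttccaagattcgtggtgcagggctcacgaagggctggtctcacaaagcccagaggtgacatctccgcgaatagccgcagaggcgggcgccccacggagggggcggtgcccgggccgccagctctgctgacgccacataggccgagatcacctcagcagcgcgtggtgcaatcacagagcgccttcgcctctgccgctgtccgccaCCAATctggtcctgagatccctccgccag
Insig1: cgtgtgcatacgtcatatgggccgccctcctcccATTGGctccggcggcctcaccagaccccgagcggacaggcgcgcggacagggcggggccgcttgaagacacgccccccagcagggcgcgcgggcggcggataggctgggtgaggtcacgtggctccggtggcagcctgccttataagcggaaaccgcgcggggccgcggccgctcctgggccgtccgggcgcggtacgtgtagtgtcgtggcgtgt
In windows of 250 bases before to 50 after the start, 26 of the 33 genes had an entry. TCACNCCAC, searched on both strands, was in 1 of the 26 (Hmgcs1) and in 1.44% of 27025 genes with an entry (1.24% of 32851 promoters). CCAAT was in 21 of the 26 genes, 80.8%, and in 41.1% of all genes (37.4% of promoters), a gene counting where any of its promoters holds it. The GC box GGGCGG, bound by SP1, was in 21 of the 26 genes and in 38.2% of all genes (35.7% of promoters). The E-box CACGTG was in 6 of the 26 genes and in 8.09% of all genes (7.15% of promoters). These matches describe letters in a window and are not evidence of binding.

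The bulk count libraries held 7709046 to 11826389 estimated reads, the microglia-like cells of a single-cell library 4079557 to 10519360 UMIs, and the depth of the TMRM libraries, given as FPKM, is unknown. Single cells were clustered, and 14384 of 15335 kept cells fell in clusters named microglia-like. All 10 microglia markers were detected in each of the 18 clusters, those of other cells included, so detection alone does not set the class apart. UMIs were summed over these cells in each library, and levels are CPM, the UMIs of a gene as a share of that sum scaled by TMM factors. The 8 libraries shared few barcodes (137 barcode sequences in more than 1 library). The wild-type and ST2 libraries carry different dates. Il1rl1, the gene of ST2, had 30 and 28 UMIs in KO and 36 and 46 in Het libraries, which is 7.35 and 6.17 CPM in KO and 5.3 and 6.72 CPM in Het without TMM factors, and 3′ UMIs outside the deleted part check nothing.

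Per length, in the TMRM libraries, Fads1, the delta-5 desaturase, was the most abundant of the 33 genes (median 38.8 FPKM over 18 libraries, range 33.02 to 51.5). Ebp, the sterol isomerase, followed at 32.2 FPKM (24.8 to 38.9), and the ranges of these neighbours overlap. Acly, which makes acetyl-CoA from citrate, had 26.5 FPKM and Fdps, farnesyl diphosphate synthase, 24.9 FPKM. The lowest 3 were Hsd17b7 (0.672 FPKM), Elovl6 (0.319 FPKM) and Scd1 (0.195 FPKM).

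**Figure D1:**
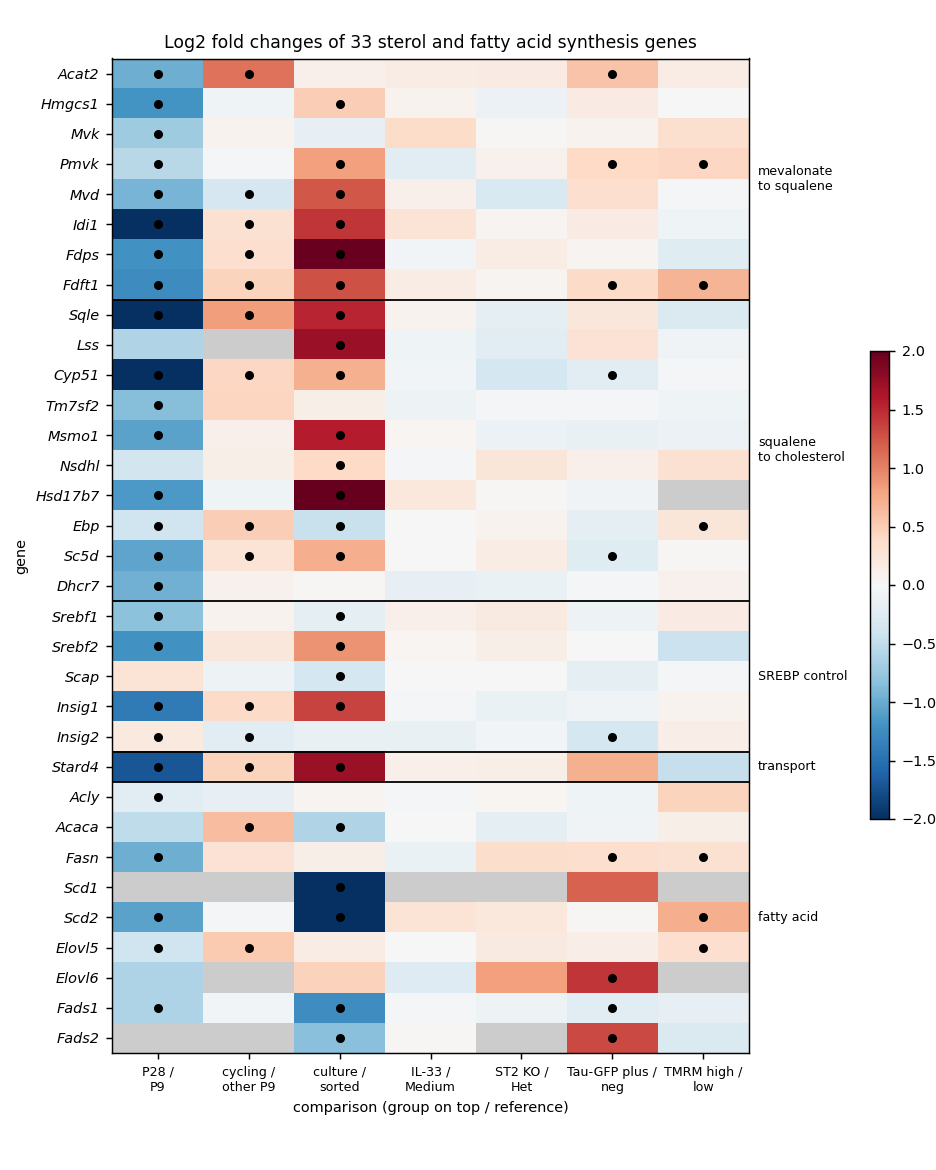
Log2 fold changes (colour, with end colours for values beyond ±2) of the 33 genes, grouped by role, in 7 comparisons, each named with the group on top first. Black dots mark an adjusted p under 0.05 and grey cells were not tested. The P28 column is blue in nearly all sterol genes, the culture column is red in most sterol genes and blue in 5 of 9 fatty acid genes by call, and the IL-33 and ST2 columns have no dot.

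With age, the sterol enzymes fell together. In P28 microglia-like cells 16 of 18 sterol enzymes were lower than at P9, 0 were higher, and 2 (Lss and Nsdhl) did not pass the test. Counting all 33 genes, 31 were tested, 25 fell, 1 rose and 5 did not pass, against 26.1% of all genes lower, 27.5% higher and 53.6% either (edgeR quasi-likelihood test, Benjamini-Hochberg adjustment over 11601 genes, called under 0.05). The median log2 fold change was -0.96 over the tested members and 0.06 over all genes tested. Summed over the 18 sterol enzymes, the level was 294 and 286.8 CPM in the P28 libraries and 565.1 and 546.2 CPM in the P9 wild-type libraries.

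Sqle, squalene epoxidase, one of the enzymes that limit the flow through the pathway, moved most. It had 1.06 and 0.807 CPM in the P28 libraries (8 and 6 UMIs) and 16.1 and 17.5 CPM in the P9 libraries (163 and 160 UMIs). The groups were far apart, and the log2 fold change was -4.13 ± 0.21 (SE; adjusted p = 3.2e-09), or 17.5-fold lower.
Cyp51, the lanosterol demethylase, had 7.12 and 7.80 CPM at P28 and 32.8 and 29.9 CPM at P9 (log2 fold change -2.05 ± 0.14, adjusted p = 4.8e-08). Idi1, which isomerises the isoprene building block, had 5.28 and 4.71 CPM at P28 and 19.5 and 21.3 CPM at P9 (-2.01 ± 0.18, adjusted p = 5.7e-07). Both were low in each P28 library and did not overlap with P9.
Hsd17b7, a sterol ketoreductase, had 1.58 and 1.61 CPM at P28 and 3.75 and 3.50 CPM at P9 (-1.16 ± 0.31, adjusted p = 0.0067), and this call was lost with DESeq2. Msmo1, a sterol methyl oxidase, had 37.6 and 32.3 CPM at P28 and 78.1 and 70.4 CPM at P9 (-1.07 ± 0.09). Fdft1, squalene synthase, had 7.65 and 7.53 CPM at P28 and 18.8 and 17.95 CPM at P9 (-1.25 ± 0.18). Its exons overlap those of Ctsb on the other strand in the annotation, and Ctsb itself was lower at P28 (log2 fold change -0.98).
Fdps had 25.7 and 23.3 CPM at P28 and 59.1 and 55.5 CPM at P9 (-1.21 ± 0.09, adjusted p = 7.7e-08). Hmgcs1, which makes HMG-CoA, had 15.96 and 19.9 CPM at P28 and 45.7 and 37.4 CPM at P9 (-1.20 ± 0.13, adjusted p = 3.5e-06). For each of these members the higher P28 library lay below the lower P9 library. With 2 libraries a group this sets little apart. It held without overlap for 30 of 31 tested members, Lss and Nsdhl among them. Between ST2 KO and Het libraries 15 of 31 did not overlap and 0 were called. The share over all genes is not given here.
The smallest fall among the called sterol enzymes was that of Ebp, at -0.39 ± 0.07, with 103.5 and 98.6 CPM at P28 and 134.5 and 134.4 CPM at P9.

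The control genes did not all move together. Insig1, which holds SREBP in the endoplasmic reticulum and is itself an SREBP target, had 8.44 and 9.41 CPM at P28 and 24.96 and 23.1 CPM at P9 (-1.41 ± 0.12, adjusted p = 4.7e-07). Srebf2, which encodes SREBP2, had 9.10 and 6.72 CPM at P28 and 17.2 and 20.1 CPM at P9 (-1.21 ± 0.16, adjusted p = 3.5e-05). Srebf1, which encodes SREBP1, had 9.23 and 10.9 CPM at P28 and 18.55 and 17.5 CPM at P9 (-0.82 ± 0.14, adjusted p = 0.00026). All 3 were lower in each P28 library than in each P9 library. Scap, the escort protein, did not pass the test, with 24 and 22.1 CPM at P28 and 19.9 and 18.7 CPM at P9 (0.27 ± 0.13, adjusted p = 0.098).
Insig2, a relative of Insig1 whose transcript SREBP is not known to drive, was the single member called higher, with 75.6 and 77.9 CPM at P28 and 67.1 and 68.8 CPM at P9 (0.19 ± 0.06, adjusted p = 0.022). That call was lost with DESeq2, with other scaling factors, without cycling cells, without the low-count filter and in 3 of the 4 fits that leave out a library. Stard4, a sterol carrier, had 2.64 and 2.96 CPM at P28 and 10.1 and 8.54 CPM at P9 (-1.71 ± 0.22, adjusted p = 2.0e-05).

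Of the 9 fatty acid genes 5 fell, 2 did not pass and 2 were not tested. Scd2, the stearoyl-CoA desaturase that microglia express, had 24.3 and 25.01 CPM at P28 and 50.6 and 54.5 CPM at P9 (-1.07 ± 0.09, adjusted p = 2.8e-07). Fasn, fatty acid synthase, had 3.56 and 3.50 CPM at P28 and 6.81 and 7.33 CPM at P9 (-0.98 ± 0.22, adjusted p = 0.0018). Both were about equal between the libraries of an age and apart between ages.
Fads1 had 38.4 and 37.1 CPM at P28 and 56.3 and 60.9 CPM at P9 (-0.61 ± 0.08, adjusted p = 2.5e-05). Elovl5, an elongase of polyunsaturated fatty acids, was called at -0.39 ± 0.13 and lost the call with DESeq2 and without cycling cells. Acly was called at -0.20 ± 0.08 and lost the call in each of the 4 fits that leave out a library. Acaca (acetyl-CoA carboxylase, -0.52 ± 0.23) and Elovl6 (-0.62 ± 0.62), the elongase of saturated fatty acids, did not pass. Scd1 had 0 UMIs in all 8 libraries, which allows a level of up to 0.728 CPM in the shallowest of them. Fads2, the delta-6 desaturase, had 0 UMIs in both P28 libraries and 4 and 7 UMIs in the P9 libraries, too few for a fold.

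**Figure D2:**
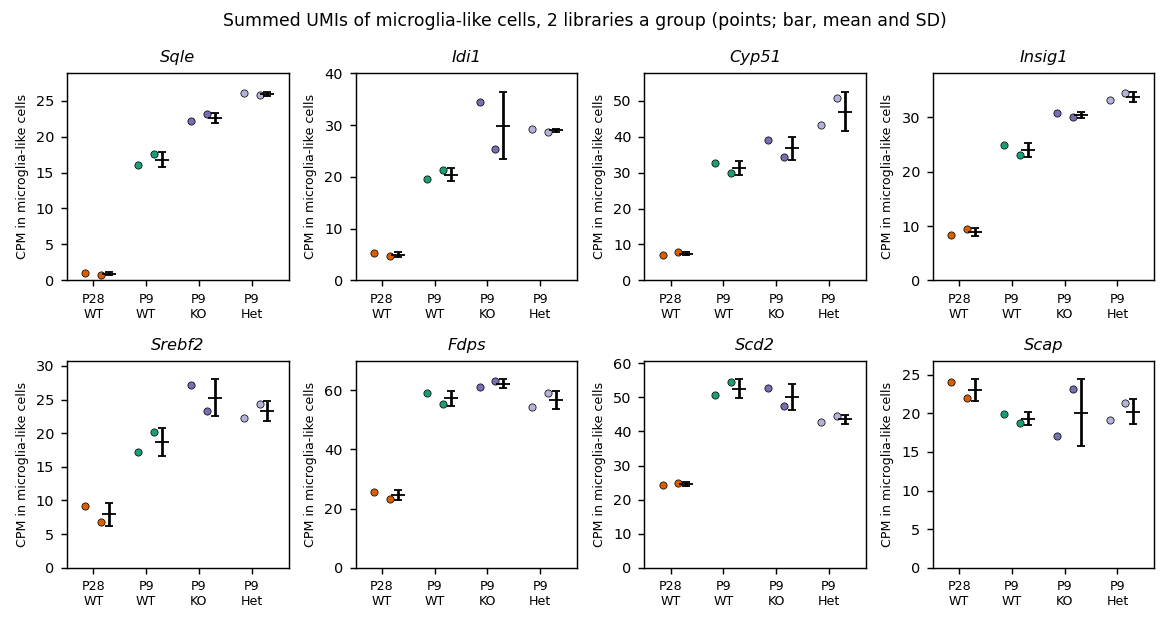
CPM of 8 genes in summed microglia-like cells, with points for the 2 libraries of each group and a bar for the mean and SD. Sqle, Idi1, Cyp51, Insig1, Srebf2, Fdps and Scd2 sit lower in both P28 libraries than in all 6 P9 libraries, and Scap does not.

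Other measures moved with age as well. The 30 genes of the cell cycle list each fell, and 0.0349 to 0.0710% of P28 cells were called cycling, against 23.1 and 23.97% at P9. Median UMIs per cell were 2296 and 2232 at P28 and 3834 and 4070 at P9. Border-associated macrophage markers summed to 33.1 to 37.1 CPM at P28 and 289.0 to 303.9 CPM at P9, with 5 of 8 markers lower and none of the 8 at 0. Neutrophil markers summed to 56.9 to 89.2 CPM at P28 and 2.17 to 6.02 CPM at P9, with 5 of 6 markers higher and Ngp and Ltf at 0 at P9. Astrocyte markers summed to 178.6 to 183.4 CPM at P28 and 38.9 to 39.3 CPM at P9, with 1 of 7 tested, which was higher, and with Aqp4, Gfap and Gja1 at 0 at P28. Without overlap, the sums of lymphocyte, mural, neuron, oligodendrocyte precursor and choroid plexus markers were lower at P28 and those of microglia, endothelial and oligodendrocyte markers higher. The endothelial markers disagreed with their sum, since of 3 tested 1 was higher and 2 were lower (median log2 fold change -1.71). The part of these markers in the result was not tested. Without the cells called cycling 24 of 30 tested members were called lower, against 2724 of 11352 genes. Sqle then had 1.06 and 0.809 CPM at P28 and 13.01 and 13.1 CPM at P9 (log2 fold change -3.78). The cycling call needs at least 3 UMIs of the cell cycle list after thinning to 1000 UMIs per cell. In the P9 wild-type libraries 358 and 281 cells had 2 or 3, so cycling cells can remain among the others.

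Genes of the pathway outside the 33 were read from a list of 39, of which 38 had a row here. At P28 12 of them were higher, 12 lower and 9 did not pass. Tmem97, an endoplasmic reticulum sterol-binding protein, fell by 1.57 and Hsd17b12, a fatty acid elongation reductase, by 1.27 on the log2 scale. Pdss1, which makes the tail of coenzyme Q, had a log2 fold change of -1.17 ± 0.24. Lpin1, a phosphatidate phosphatase of glyceride synthesis, rose by 1.60 ± 0.13 on the log2 scale. By group, 6 of 8 tested sterol uptake and late synthesis genes fell, and of 6 tested genes of LXR and cholesterol efflux 4 rose and 0 fell.

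In border-associated macrophages, the macrophages of meninges and vessels, the age difference of some sterol genes differed from that in microglia-like cells. Their summed sterol enzyme level, which was not tested within macrophages and rests on 92 and 80 UMIs at P28 and 299 and 243 UMIs at P9, was 466.9 and 426.9 CPM in the P28 libraries and 368.9 and 312.2 CPM in the P9 wild-type libraries. The groups did not overlap, and in microglia-like cells of the same libraries the order was reversed. Whether the age difference differed between the 2 cell classes was tested per gene with the library as a block, a test chosen after seeing the data. Of 31 members tested 7 had a P28 minus P9 difference that was higher in macrophages than in microglia-like cells and 0 lower, against 3.54% of all genes higher, 1.42% lower and 4.97% either, and the median difference of log2 fold changes was 1.23 over the members and -0.05 over all genes (edgeR). Sqle had the largest at 5.66 ± 1.096 (adjusted p = 1.9e-05), with 20.3 and 16.01 CPM at P28 and 8.64 and 3.86 CPM at P9 in macrophages. These are 4 and 3 UMIs at P28 and 7 and 3 UMIs at P9, so the values rest on very few molecules.
Insig1 had 86.3 and 53.4 CPM in P28 macrophages and 16.04 and 17.99 CPM in P9 macrophages (difference of log2 fold changes 3.48 ± 0.51, adjusted p = 1.1e-09). Fdps had 60.9 and 90.7 CPM in P28 macrophages and 28.4 and 26.98 CPM in P9 macrophages (2.68 ± 0.42, adjusted p = 3.1e-08). Both P28 macrophage libraries lay above both P9 ones for these 2 genes. The other called members were Idi1 (3.54), Srebf2 (3.18), Cyp51 (2.91) and Msmo1 (1.93). All 7 were also called with DESeq2. Without the first P28 library the calls of Idi1 and Cyp51 were lost, without the second P28 library that of Srebf2, and without the second P9 library that of Cyp51, so 5 to 7 remained. Not every member was at a higher level in P28 macrophages, since Ebp had 81.2 and 85.4 CPM at P28 and 97.5 and 88.7 CPM at P9, and Insig2 50.8 and 48.03 CPM at P28 and 71.6 and 57.8 CPM at P9. There were 55 and 57 macrophages in the P28 libraries and 255 and 230 in the P9 libraries.

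**Figure D3:**
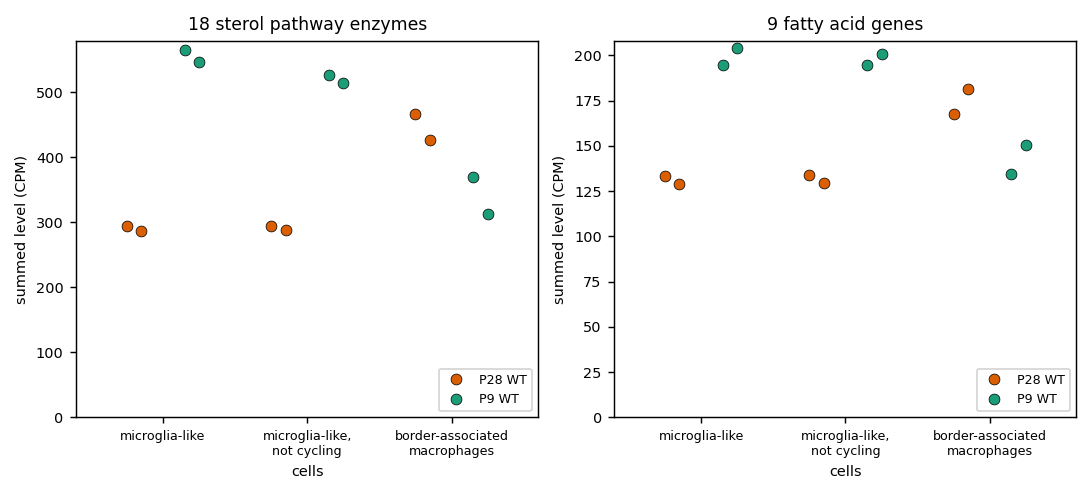
Summed level (CPM) of the 18 sterol enzymes (left) and the 9 fatty acid genes (right) in the libraries of each age, for microglia-like cells, microglia-like cells without those called cycling, and border-associated macrophages. P28 points lie below P9 points in microglia-like cells and above them in macrophages.

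Among P9 microglia-like cells the level varied by cluster, which is a description since the clusters were made from all genes. The cluster with Dtl, Ung and Lig1, genes of DNA replication and repair, among its leading genes averaged 735 CPM of the sterol enzymes over 6 libraries. The cluster led by Spp1, Mt2, Apoc1 and Gpnmb averaged 342 CPM over the 5 libraries with at least 20 of its cells. In those 5 libraries it had 326 to 353 CPM and every other microglia-like cluster with at least 20 cells 409 CPM or more. The cluster of border-associated macrophages, outside the microglia-like cells, had 275.8 to 398.8 CPM in the same 5 libraries.

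Cycling cells of the P9 libraries held more of some sterol transcripts than the other cells of the same library. Cells were called cycling from 30 cell cycle genes, none of them among the 33. Of 29 members tested 12 were higher in cycling cells, 2 lower and 15 did not pass, against 24.7% of all genes higher, 21.3% lower and 46.1% either (edgeR with the library as a block, 6 libraries, 9915 genes). Acat2, cytosolic acetoacetyl-CoA thiolase, had 25.3 to 36.2 CPM in cycling cells and 13.4 to 17.9 CPM in the other cells, with no overlap over the 6 libraries (log2 fold change 1.09 ± 0.11, adjusted p = 1.4e-11). Sqle had 23.6 to 39.8 CPM in cycling cells and 13.2 to 24.1 CPM in the other cells (0.83 ± 0.11, adjusted p = 1.5e-08), higher in cycling cells in 6 of 6 libraries.
Ebp had 133.2 to 169.9 CPM in cycling cells and 97.0 to 125.2 CPM in the other cells (0.49 ± 0.05), also without overlap. Cyp51 (0.41 ± 0.08), Fdft1 (0.44 ± 0.12), Fdps (0.33 ± 0.07), Idi1 (0.31 ± 0.10), Sc5d (the lathosterol desaturase, 0.28 ± 0.10), Insig1 (0.38 ± 0.10), Stard4 (0.44 ± 0.16), Elovl5 (0.53 ± 0.11) and Acaca (0.61 ± 0.21) were the other members called higher. Ctsb, which overlaps Fdft1, was lower (-0.68). Mvd, mevalonate diphosphate decarboxylase (-0.34 ± 0.14), and Insig2 (-0.23 ± 0.07) were called lower. Hmgcs1 (-0.09 ± 0.08), Srebf1 (0.07 ± 0.13), Srebf2 (0.22 ± 0.11), Fasn (0.29 ± 0.19) and Scd2 (-0.03 ± 0.08) did not pass the test. DESeq2 called 8 members higher and 1 lower.
Of the pathway list 11 genes were higher and 9 lower in cycling cells. Lbr, a lamin receptor that is also a sterol reductase, had 125 ± 7.5 CPM in cycling cells and 33.2 ± 4.2 CPM in the other cells (SD, 6 libraries). All 6 tested genes of LXR and efflux were lower, led by Abca1, a cholesterol exporter, at -0.92 ± 0.07. Median UMIs per cell were 4475 to 7298 in cycling and 3638 to 5709 in the other cells.

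Most sterol enzymes were higher in cultured than in sorted microglia, and the desaturases Scd2 and Fads1 were lower. In Medium cultures, against GFP-negative sorted microglia, 13 of 18 sterol enzymes were higher, 1 lower and 4 did not pass, and of 9 fatty acid genes 0 were higher and 5 lower. The 4 fatty acid genes that did not pass had positive log2 fold changes, and of 16 tested genes of other fatty acid steps 7 were higher and 6 lower. Over the 33 genes 16 were higher and 8 lower, against 36.2% of all genes higher, 41.1% lower and 77.3% either (edgeR, 12748 genes). Strain background, age, the Mapt allele and culture differ together between these groups and cannot be told apart. In bulk RNA, fewer cells of a type and less RNA per cell cannot be told apart either. Summed, the sterol enzymes had 901 ± 30 CPM in Medium cultures and 479 ± 33 CPM in GFP-negative cells (SD, n = 7 and 8). The 10 microglia markers were all lower in culture, summing to 8632 to 9915 CPM in Medium cultures and 48207 to 58395 CPM in GFP-negative cells. Of 30 cell cycle genes 27 were lower in culture and 1 was higher. Border-associated macrophage markers summed to 1164 to 1693 CPM in Medium and 412 to 635 CPM in GFP-negative cells, with 3 of 8 higher and 5 lower and none of the 8 at 0. Monocyte markers summed to 45.6 to 69.3 CPM in Medium and 5.96 to 16.2 CPM in GFP-negative cells, with 3 of 7 higher, 1 lower and none at 0. The sum of neutrophil markers was also higher in culture, and those of lymphocyte, endothelial, astrocyte, oligodendrocyte precursor and neuron markers were lower, without overlap. Their part in the result was not tested.

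Hsd17b7 had 17.4 to 23.6 CPM in Medium cultures (median 20.5) and 2.56 to 7.42 CPM in GFP-negative cells (median 4.36), with no overlap (2.23 ± 0.19, adjusted p = 3.5e-12). Fdps had 89.8 to 107.2 CPM in Medium (median 100.6) and 20.7 to 31.3 CPM in GFP-negative cells (median 24.7; 1.97 ± 0.09, adjusted p = 1.9e-19). Both were higher in every culture library than in any sorted library.
Lss, lanosterol synthase, had 30.6 to 40.7 CPM in Medium (median 35.4) and 6.94 to 14.8 CPM in GFP-negative cells (median 9.83; 1.73 ± 0.13). Msmo1 had 141 to 171.4 CPM in Medium (median 164.6) and 48.7 to 58.5 CPM in GFP-negative cells (median 54.4; 1.57 ± 0.06, adjusted p = 1.5e-21). Sqle had 51.4 to 69.8 CPM in Medium (median 59.2) and 11.5 to 26.2 CPM in GFP-negative cells (median 21.5; 1.53 ± 0.12, adjusted p = 1.0e-12). None of these groups overlapped.
Idi1 had 40.5 to 66.4 CPM in Medium (median 55.4) and 17.5 to 24.8 CPM in GFP-negative cells (median 19.8; 1.43 ± 0.12). Fdft1 rose by 1.27 ± 0.09 on the log2 scale, while Ctsb, whose exons overlap it, rose by 2.13. Unstranded bulk reads from the stretch that the pair shares cannot be told apart, and the share of such reads was not tested. Mvd had 17.02 to 27.1 CPM in Medium (median 23.6) and 7.04 to 12.3 CPM in GFP-negative cells (median 9.68; 1.24 ± 0.14).
Hmgcs1 had 90.97 to 117.2 CPM in Medium (median 106.3) and 62.6 to 84.7 CPM in GFP-negative cells (median 75.5; 0.49 ± 0.07), again without overlap. Ebp was the single sterol enzyme that was lower in culture (-0.44 ± 0.08), with 39.02 to 47.8 CPM in Medium and 43.8 to 70.8 CPM in GFP-negative cells.
Insig1 had 80.3 to 106.1 CPM in Medium (median 90.9) and 30.9 to 43.4 CPM in GFP-negative cells (median 36; 1.35 ± 0.10). Srebf2 had 61.97 to 71.5 CPM in Medium (median 66.9) and 23.8 to 43.2 CPM in GFP-negative cells (median 36.6; 0.90 ± 0.12). Stard4 had 7.92 to 11.99 CPM in Medium (median 10.01) and 1.26 to 4.59 CPM in GFP-negative cells (median 3.41; 1.73 ± 0.29). For these 3 the groups did not overlap.
Srebf1 (-0.19 ± 0.08, adjusted p = 0.039) and Scap (-0.34 ± 0.10) were lower in culture, with groups that overlap, and the Srebf1 call was lost without the low-count filter.

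Scd2 had 9.89 to 17.3 CPM in Medium cultures (median 12.9) and 78.3 to 135.9 CPM in GFP-negative cells (median 112.3), with no overlap (-3.05 ± 0.15, adjusted p = 4.9e-18). It was the member with the largest fall among those with a level above 1 CPM in both groups. Scd2 and Scd1 are paralogs, and the counting could split reads that match both, which was not tested. Scd1 was listed at 0 in 6 of 7 Medium libraries and had 0 to 4.28 CPM in GFP-negative libraries, and its call is therefore given without a fold. Fads1 had 109.2 to 125.6 CPM in Medium (median 118.3) and 239 to 298.2 CPM in GFP-negative cells (median 279.7; -1.24 ± 0.05, adjusted p = 3.9e-20), without overlap.
Fads2 (-0.83 ± 0.28) and Acaca (-0.60 ± 0.18) were also lower in culture, with groups that overlap. Fasn had 33.8 to 48.1 CPM in Medium (median 40.3) and 31.3 to 41.8 CPM in GFP-negative cells (median 35.1) and did not pass (0.12 ± 0.10, adjusted p = 0.26). Of the pathway list 15 genes were higher and 14 lower, led by Me1, the malic enzyme that makes NADPH (6.61 ± 0.37), Nr1h3, which encodes the sterol sensor LXR alpha (4.12 ± 0.29), and Abcg1, a cholesterol exporter (-3.28 ± 0.12). Soat1, which esterifies cholesterol (2.33 ± 0.07), and Slc25a1, the citrate carrier (1.94 ± 0.13), were higher and Lbr was lower (-2.35 ± 0.10).

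**Figure D4:**
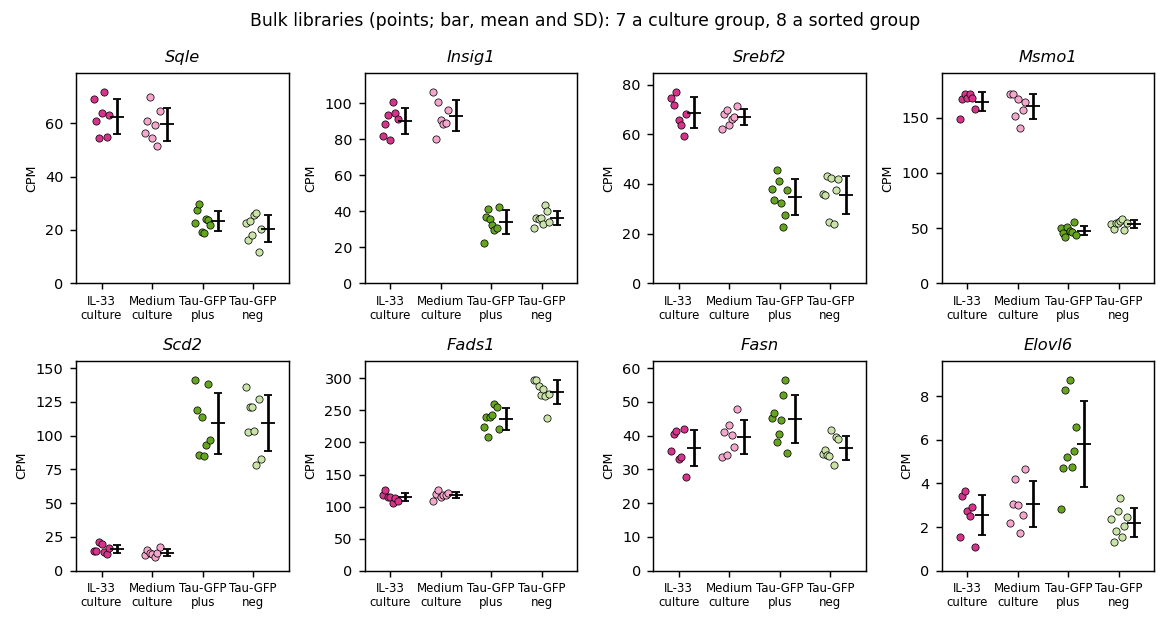
CPM of 8 genes in bulk libraries of IL-33 and Medium cultures (7 each) and GFP-positive and GFP-negative sorted microglia (8 each), with the mean and SD as a bar. Sqle, Insig1, Srebf2 and Msmo1 sit higher in all culture libraries than in all sorted ones, Scd2 and Fads1 lower, and Elovl6 is highest in GFP-positive cells.

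IL-33 left the genes without a called change. Of 32 members tested 0 were higher and 0 lower in IL-33 cultures than in Medium, against 4.22% of all genes higher, 3.54% lower and 7.76% either (edgeR, 10815 genes). The Medium cultures here are the same libraries as in the comparison with sorted cells. At an unadjusted p under 0.05 there were 5 of the 32 members, against 2033 of 10815 genes, so the share of members was no higher. DESeq2 called 1 member, against 513 genes higher and 470 lower. That member was Idi1, with 59.7 to 76.6 CPM in IL-33 cultures (median 63.2) and 40.5 to 66.4 CPM in Medium cultures (median 55.4), a log2 fold change of 0.27 ± 0.09 with an adjusted p of 0.070 in edgeR and 0.038 in DESeq2. The groups overlap. The other 4 with an unadjusted p under 0.05 were Mvk, mevalonate kinase (0.36 ± 0.13), Fdft1 (0.16 ± 0.06), Pmvk, phosphomevalonate kinase (-0.22 ± 0.09), and Dhcr7, the 7-dehydrocholesterol reductase (-0.16 ± 0.06).
For the controls, Srebf2 had 59.2 to 76.9 CPM in IL-33 cultures and 61.97 to 71.5 CPM in Medium (0.04 ± 0.06), and Srebf1 57.3 to 81.2 CPM in IL-33 cultures and 56.8 to 68.5 CPM in Medium (0.09 ± 0.07). Insig1 had 79.7 to 101 CPM in IL-33 cultures and 80.3 to 106.1 CPM in Medium (-0.04 ± 0.07), and Sqle 54.3 to 71.6 CPM in IL-33 cultures and 51.4 to 69.8 CPM in Medium (0.07 ± 0.07). All of these groups overlap. Hmgcs1 (0.08 ± 0.06), Fasn (-0.13 ± 0.10) and Scd2 (0.27 ± 0.14) did not pass. Elsewhere in the pathway 6 genes were higher and 2 lower, led by Nr1h3 at 25.3 ± 4.0 CPM in IL-33 and 14.01 ± 4.1 CPM in Medium (0.85 ± 0.16, adjusted p = 0.0011), and by Acsl1, a long-chain acyl-CoA synthetase (0.66 ± 0.07, adjusted p = 7.9e-07). Lpin1 was lower (-0.54 ± 0.14), and Abca1 (0.36), Acsl4 (0.35) and Acsl5 (0.26) were higher.

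Loss of ST2 also gave no called change. In KO against Het microglia-like cells 0 of 31 tested members were higher and 0 lower, against 0.31% of all genes higher, 0.302% lower and 0.612% either (edgeR). At an unadjusted p under 0.05 there were 2 of the 31 members, against 1154 of 11601 genes. DESeq2 called 0 members, and each other setting tried also called 0. Sqle had 22.1 and 23.1 CPM in KO and 26.1 and 25.8 CPM in Het libraries (-0.19 ± 0.12), and Srebf2 27.2 and 23.3 CPM in KO and 22.3 and 24.4 CPM in Het (0.12 ± 0.15). Cyp51 had the smallest adjusted p, 0.31, with 39.1 and 34.5 CPM in KO and 43.1 and 50.9 CPM in Het libraries (-0.35 ± 0.12). Scd2 had 52.7 and 47.3 CPM in KO and 42.7 and 44.5 CPM in Het (0.21 ± 0.09, adjusted p = 0.48). Insig1 (-0.14 ± 0.11), Srebf1 (0.18 ± 0.14), Hmgcs1 (-0.12 ± 0.12) and Fasn (0.35 ± 0.23) did not pass. The 18 sterol enzymes summed to 601.5 and 564.8 CPM in KO and 598.1 and 592.5 CPM in Het libraries, and 0 of the pathway list were called in either direction.

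The GFP-positive sorted libraries differed from the GFP-negative ones in a few members. Against GFP-negative microglia 6 of 33 were higher and 4 lower, against 20.7% of all genes higher, 16.9% lower and 37.7% either (edgeR, 12138 genes), so the share of members called is near the background in both directions. Elovl6 had 2.82 to 8.77 CPM in GFP-positive libraries (median 5.35) and 1.33 to 3.34 CPM in GFP-negative libraries (median 2.22; 1.44 ± 0.25, adjusted p = 0.00021). Fads2 had 5.70 to 17.6 CPM in GFP-positive libraries (median 10.5) and 2.05 to 7.07 CPM in GFP-negative libraries (median 4.22; 1.32 ± 0.29, adjusted p = 0.0015). In both the groups overlapped at their edges.
Acat2 had 16.7 to 24.8 CPM in GFP-positive and 12.6 to 17.7 CPM in GFP-negative libraries (0.58 ± 0.10, adjusted p = 0.00019). Pmvk had 12.2 to 17.6 CPM in GFP-positive and 10.02 to 15.9 CPM in GFP-negative libraries (0.39 ± 0.12). Fasn had 34.8 to 56.6 CPM in GFP-positive and 31.3 to 41.8 CPM in GFP-negative libraries (0.34 ± 0.09, adjusted p = 0.0077), and Fdft1 rose by 0.38 ± 0.10 on the log2 scale while Ctsb rose by 0.27.
Fads1 had 209.1 to 260.2 CPM in GFP-positive and 239 to 298.2 CPM in GFP-negative libraries (-0.21 ± 0.05). Insig2 had 30.8 to 40.7 CPM in GFP-positive and 35.7 to 55.3 CPM in GFP-negative libraries (-0.35 ± 0.09). Cyp51 (-0.23 ± 0.09) and Sc5d (-0.25 ± 0.09) were also called lower, and both calls were lost without the GFP-positive library 5, which has the highest macrophage marker sum. Srebf1 (-0.10 ± 0.09), Srebf2 (-0.00 ± 0.15), Insig1 (-0.06 ± 0.11), Sqle (0.22 ± 0.15), Hmgcs1 (0.16 ± 0.07) and Scd2 (0.03 ± 0.13) did not pass.

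Markers of other cells moved with this contrast. All 8 border-associated macrophage markers were higher, summing to 2385 to 6595 CPM in GFP-positive libraries and 412 to 635 CPM in GFP-negative libraries. Neuron markers summed to 52.5 to 128.8 CPM in GFP-positive libraries and 3.66 to 8.53 CPM in GFP-negative libraries, with 7 of 8 higher and none of the 8 at 0. All 10 microglia markers were lower, summing to 23740 to 37372 CPM in GFP-positive libraries and 48207 to 58395 CPM in GFP-negative libraries. Mural markers were higher in 6 of 6 and astrocyte markers in 6 of 7. Endothelial markers were higher in 4 of 7 and lower in 0, with sums that overlap. Of 30 cell cycle genes 19 were higher and 1 was lower. Oligodendrocyte precursor markers summed to 16.2 to 79.2 CPM in GFP-positive libraries and 0.278 to 9.11 CPM in GFP-negative libraries, with 1 of 6 tested, which was higher, and Olig2 at 0 in GFP-negative libraries. Their part in the result was not tested. In the pathway list 6 genes were higher and 8 lower, among them Acss2, acetyl-CoA synthetase (1.19 ± 0.41), Mcat, a mitochondrial acyltransferase (-0.60 ± 0.23), Mylip, a ubiquitin ligase induced by LXR (-0.50 ± 0.12), and Lpcat3, a phospholipid acyltransferase (-0.42 ± 0.06).

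Microglia with high TMRM staining had more Scd2. Of 30 members tested 6 were higher and 0 lower in TMRM-high libraries, against 20.4% of all genes higher, 9.84% lower and 30.3% either. The share of members called higher is therefore near the background. The test was limma on log2(FPKM + 1) over 10714 symbols, so that a fold change understates that of low genes. Scd2 had 10.5 to 16.2 FPKM in TMRM-high libraries (median 13.3) and 6.49 to 9.01 FPKM in TMRM-low libraries (median 7.51), without overlap (0.73 ± 0.08, adjusted p = 9.9e-07), and was higher than the low median in 10 of 10 libraries. Fdft1 had 16.8 to 27.1 FPKM in TMRM-high libraries (median 21.8) and 10.3 to 16.6 FPKM in TMRM-low libraries (median 13.4), also without overlap (0.68 ± 0.10, adjusted p = 3.4e-05), but Ctsb on the other strand of its exons rose by 1.26. Reads from the stretch that the 2 genes share cannot be told apart in these unstranded data, and the share of such reads was not tested.
Elovl5 had 13.9 to 17.7 FPKM in TMRM-high and 9.41 to 17.4 FPKM in TMRM-low libraries (0.33 ± 0.10, adjusted p = 0.012). Ebp had 31.1 to 38.9 FPKM in TMRM-high and 24.8 to 34.97 FPKM in TMRM-low libraries (0.24 ± 0.07, adjusted p = 0.012). Both overlapped. Pmvk (0.41 ± 0.15, adjusted p = 0.047) and Fasn (0.31 ± 0.12, adjusted p = 0.048) stood at the edge of the threshold and lost their calls under several settings. Srebf2 had 1.47 to 5.43 FPKM in TMRM-high libraries (median 3.97) and 3.25 to 6.63 FPKM in TMRM-low libraries (median 5.52; -0.43 ± 0.17, adjusted p = 0.068), and Sqle 2.95 to 6.15 FPKM in TMRM-high (median 4.49) and 2.86 to 7.12 FPKM in TMRM-low (median 6.14; -0.29 ± 0.14, adjusted p = 0.13). Neither passed, nor did Srebf1 (0.17 ± 0.10), Insig1 (0.07 ± 0.10) or Hmgcs1 (0.00 ± 0.11).
With quantile normalization the members split 3 higher and 2 lower, and all genes 1426 higher and 1375 lower, which is 50.9% higher among the calls against 67.5% in the fit above.

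**Figure D5:**
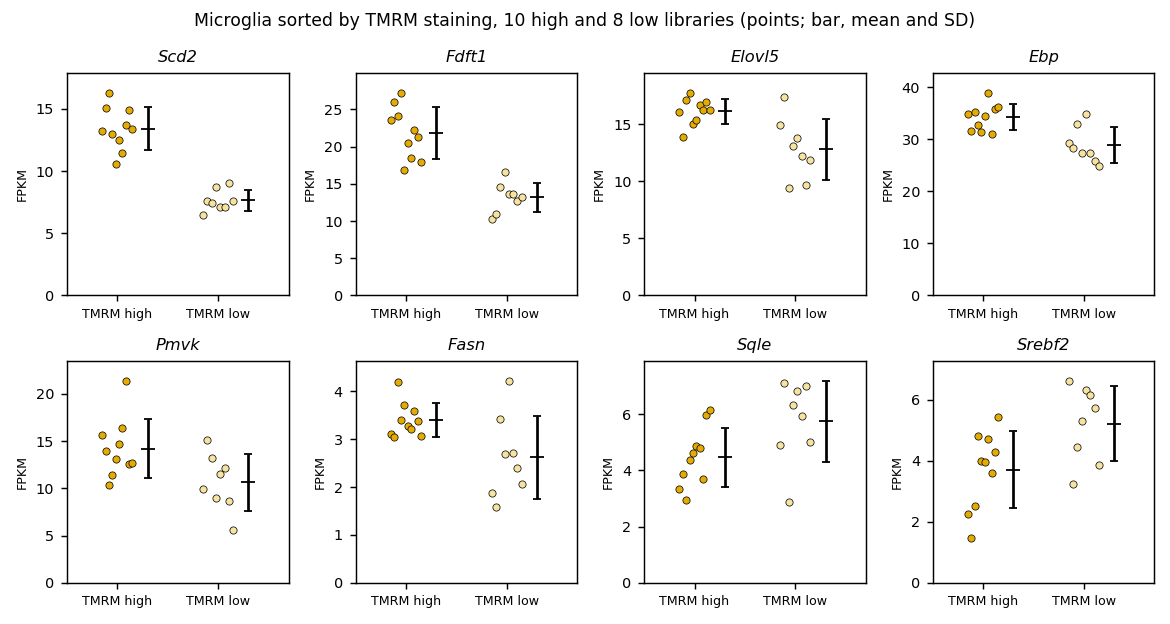
FPKM of 8 genes in TMRM-high (10) and TMRM-low (8) libraries with the mean and SD as a bar. Scd2 and Fdft1 do not overlap between the groups, Elovl5, Ebp, Pmvk and Fasn overlap, and Sqle and Srebf2 have the higher mean in TMRM-low.

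Other markers differed here too. Neutrophil markers were lower in 6 of 6, summing to 0.184 to 782 FPKM in TMRM-high libraries and 643 to 2308 FPKM in TMRM-low libraries. Choroid plexus markers summed to 30.8 to 117.3 FPKM in TMRM-high libraries and 115.7 to 34062 FPKM in TMRM-low libraries, and monocyte markers to 9.11 to 31.8 FPKM in TMRM-high libraries and 37.3 to 93.2 FPKM in TMRM-low libraries. Border-associated macrophage markers were higher in 5 of 8 and cell cycle genes in 25 of 30. Neuron markers summed to 1.06 to 3.05 FPKM in TMRM-high libraries and 5.26 to 19.5 FPKM in TMRM-low libraries, with 3 of 8 lower. Microglia markers were lower in 6 of 10, with sums that overlap. None of the neutrophil, choroid plexus, monocyte, neuron and macrophage markers was at 0 in either group. Their part in the result was not tested. Of the pathway list 8 genes were higher and 0 lower, and Soat1 (1.21 ± 0.12), Abcg1 (0.79 ± 0.09), Abca1 (0.66 ± 0.11), Agpat3, an acyltransferase of glyceride synthesis (0.39 ± 0.07), Slc25a1 (0.36 ± 0.10) and Mbtps1, the protease that cleaves SREBP (0.33 ± 0.10), had the largest changes among those called.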

How the data were processed

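The bulk table held estimated counts (expected counts) deposited by the authors (Bowtie2 and RSEM, mm10, per the submitters' processing notes, roles not stated), which were rounded to whole numbers. The single-cell matrix held UMI counts deposited by the authors (Cell Ranger, mm10, per the submitters' processing notes). The TMRM libraries held FPKM deposited by the authors (TopHat2 2.0.10 and Cufflinks 2.0.2, per the submitters' processing notes). Of the bulk columns, 5 that matched no sample were not used. 27 symbols turned into dates by a spreadsheet hold 0.134% of the counts.

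Barcodes were kept from 500 genes upward, with mitochondrial UMIs below 10%, and clustered (scanpy 1.11.5, 2000 variable genes, Leiden resolution 1). No doublet caller was run. A cluster took a name only if at least 3 markers of the type were detected, a rule added after the planned scoring misnamed clusters, and it renamed 7 of 18 clusters. Every cluster met that minimum for microglia, so the marker score decided between the types. Summed UMIs and bulk counts were tested with edgeR 4.0.16 (TMM factors, quasi-likelihood, filterByExpr). The age, ST2 and macrophage contrasts were each fitted over all single-cell libraries with a shared spread, so the ST2 libraries enter the spread used for age. The culture contrast was fitted over all bulk groups, and the IL-33 and Tau-GFP contrasts over their own groups only. FPKM were tested with limma 3.58.1 on log2(FPKM + 1) over symbols with a mean of at least 1 FPKM. DESeq2 1.42.0 was an alternative. The steps were tested on simulated data. A floor of 3 counts stands for a count of 0 and covers counting error only. Values after ± are the SE of the fit for log2 fold changes and their differences, which includes the spread between libraries. For levels in CPM they are the SD between libraries.

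In each comparison the called members with the largest changes in each role, up to 4, and Srebf1, Srebf2, Insig1, Sqle, Hmgcs1, Fasn and Scd2 were described, with at most 6 called genes of the pathway list. A few genes of that list are not reported here. The members and lists were chosen with earlier results of these data known. Replicate numbers were taken to pair samples only with more than 2 pairs, all with a correlation over 0.1, and no comparison met this rule. In Tau-GFP 6 of 8 pairs were over 0.1 and 4 of 8 libraries correlated best with their own number. Failing the rule does not show that these libraries are unpaired. Alternatives are given in the closing section.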

Additional observations from a re-analysis of the deposited data

Results flagged for a closer look

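Some single libraries stood far from the others of their group. This was tested in 189 sets of values of 1 gene in 1 group of 7 to 10 libraries, with a mean of at least 1, and 10 stood apart, which is about the number that chance gives (1 in 20). In the sorted Tau-GFP microglia, Fads1 had 239 CPM in GFP-negative library 7 against 272.9 CPM in the next lowest. In GFP-positive library 3 Idi1 had 34.3 CPM against 24.3 CPM in the next highest, and Stard4 had 12.1 CPM against 6.48 CPM. In TMRM-high library 2 Mvk had 2.09 FPKM against 5.15 FPKM in the next lowest, Nsdhl 3.21 FPKM against 5.71 FPKM, and Srebf1 9.84 FPKM against 13.3 FPKM. Insig2 had 5.37 FPKM in TMRM-high library 1 against 7.15 FPKM in the next lowest. In TMRM-low library 5 Hmgcs1 had 18.2 FPKM against 12.9 FPKM in the next highest. In TMRM-low library 2, the library with the highest choroid plexus marker sum, Insig2 had 14.4 FPKM against 8.28 FPKM and Fads2 9.71 FPKM against 3.83 FPKM.

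The age difference differed between cell classes for 7 genes. The P28 minus P9 difference in border-associated macrophages exceeded that in microglia-like cells by 5.66 for Sqle, 3.54 for Idi1, 3.48 for Insig1, 3.18 for Srebf2, 2.91 for Cyp51, 2.68 for Fdps and 1.93 for Msmo1 on the log2 scale, in an edgeR test of the difference itself with the library as a block. The sterol enzymes had 92 and 80 UMIs in P28 macrophages and 299 and 243 UMIs in P9 macrophages, of 205352 and 212628 UMIs at P28 and 902689 and 880942 UMIs at P9.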

How the results depend on the processing

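Over the members, 1621 values kept their direction and call under an alternative, 64 lost and 21 gained a call, and no value changed direction with a call. Of the counts of calls 176 stayed within 1.5 times and 44 did not. At P28 the count of members called higher was 0 instead of 1 with DESeq2, RLE factors, without cycling cells, without the low-count filter and with the replicate block, and 0 to 1 without a library, and DESeq2 called 1952 genes higher. In cycling cells DESeq2 called 1 member lower, and without the library block 7 members were higher, 0 lower and 1379 genes lower. For IL-33, DESeq2 and the replicate block called 1 member higher. For ST2, the genes called higher and lower were 23 and 21 over all barcodes, 252 and 115 without the filter, 263 and 85 with the replicate block and 13 to 126 and 11 to 35 without a library, and 22 were lower without cycling cells. In Tau-GFP, 2 to 4 members were lower without a GFP-positive library, 2 without GFP-positive library 5 and without libraries 3 and 5. In TMRM, quantile normalization gave 3 members higher, 2 lower and 1426 genes higher, the replicate block gave 2 and 2, and the members lower were 1 without low library 2, 3 without low library 3 and 2 without low libraries 2, 3 and 7. For the macrophage difference, DESeq2 called 30 genes lower, and without a library 156 to 344 were higher and 42 to 109 lower. The cause was not tested. Replicate numbers met the rule for pairing in no comparison (correlation 0.0116 for age and 0.105 for ST2, each from 2 pairs, and a median of 0.167 for Tau-GFP, with 6 of 8 pairs over 0.1, -0.0159 for TMRM, 0.0374 for IL-33 and 0.00355 for culture). The barcode prefixes of KO 1 and Het 1 share the word redo, which the labels do not explain. With the block the calls of Insig2 (age), Cyp51 (Tau-GFP) and Pmvk, Ebp, Fasn and Elovl5 (TMRM) were lost, and Nsdhl (age), Insig2 (culture), Idi1 (IL-33), Lss (Tau-GFP) and Sqle and Srebf2 (TMRM, both lower) were gained, and no other member call changed. Depth limits Scd1, Fads2 and the macrophage values.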
